A study of Mus musculus with 8 samples.

Results

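Zinc handling genes were followed in the mouse gastrocnemius, a calf muscle rich in fast-twitch fibres, as 9 genes found by their symbols among the 25655 gene rows of the count table. They are the metallothionein genes Mt1 and Mt2, the zinc-sensing transcription factor gene Mtf1, the zinc importer genes Slc39a14, Slc39a8 and Slc39a10, and the zinc exporter genes Slc30a1, Slc30a5 and Slc30a9. The 8 samples came from male WT mice at day 4: 3 that received cecal slurry, gut contents in suspension that bring on sepsis, and 5 control samples given 10% glycerol. Wild-type genotype, male sex, tissue and day were shared by both groups, and no age is stated in the labels. Nor do the labels say that the samples came from separate animals, so the spread between samples, and each p-value built on it, may be partly technical. The 9 genes were selected on their counts in the septic and control libraries, with the difference between them known. Their levels and fold changes are therefore given as a description, with no p-value, and how many of them passed the threshold set for all genes is given once and read no further.

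Metallothioneins are small cysteine-rich proteins that bind zinc and copper in the cytosol and release them again. Their genes are induced by metals through the transcription factor MTF-1, which binds metal response elements in their promoters when cytosolic zinc rises, and also by glucocorticoids and inflammatory cytokines. Zinc enters the cytosol through ZIP proteins, encoded by the Slc39 family, and leaves it, out of the cell or into organelles, through ZnT proteins, encoded by the Slc30 family. In mouse liver, ZIP14 and the metallothioneins are known as part of the acute-phase response that lowers zinc in blood.

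The metallothionein and Slc30a1 promoters are shown because these genes are textbook targets of MTF-1. The sequences are those of RefSeq on build GRCm38.p6, an earlier build than the GRCm39 of the counts, and run from 250 bases before to 30 bases after the RefSeq start. A promoter was found for 8 of the 9 genes, all but Slc39a14. Capitals of 7 letters mark the core of the metal response element, searched as TGCGCNC and TGCACNC, and the run of 13 capitals in Mt1 marks a match to the glucocorticoid response element, searched as GNACA and TGTNC with 3 bases between them, each on both strands. The Mt1 window lies at chr8:94178839-94179118, the Mt2 window at chr8:94172368-94172647 and the Slc30a1 window at chr1:191906531-191906810, all on the plus strand.
Mt1: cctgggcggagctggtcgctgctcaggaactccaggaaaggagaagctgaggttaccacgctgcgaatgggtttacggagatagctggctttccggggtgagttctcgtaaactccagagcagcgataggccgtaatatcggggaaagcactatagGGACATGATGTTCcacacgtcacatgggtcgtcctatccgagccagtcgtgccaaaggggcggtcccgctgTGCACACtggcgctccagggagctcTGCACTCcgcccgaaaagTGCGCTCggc
Mt2: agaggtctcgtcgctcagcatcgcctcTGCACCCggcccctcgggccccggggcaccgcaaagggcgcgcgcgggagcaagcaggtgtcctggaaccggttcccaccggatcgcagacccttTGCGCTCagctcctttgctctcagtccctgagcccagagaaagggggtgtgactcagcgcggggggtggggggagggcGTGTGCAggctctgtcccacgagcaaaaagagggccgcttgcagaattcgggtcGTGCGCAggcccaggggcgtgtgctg
Slc30a1: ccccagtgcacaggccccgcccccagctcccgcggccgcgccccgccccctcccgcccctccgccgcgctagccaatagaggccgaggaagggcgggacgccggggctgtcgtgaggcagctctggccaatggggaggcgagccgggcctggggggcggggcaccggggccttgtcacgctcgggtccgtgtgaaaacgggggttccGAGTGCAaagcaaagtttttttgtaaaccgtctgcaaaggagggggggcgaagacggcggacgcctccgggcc

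The Mt1 window held 3 metal response element cores and the Mt2 window 4, counts reached by 1.73% and 0.405% of the 32851 promoter windows of this length. Of these cores, 2 in Mt1 and 1 in Mt2 lie after the RefSeq start, and the window was set after the sequences had been seen. In the 250 bases before the start alone, Mt1 held 1 core, a count reached by 21.4% of all promoters, and Mt2 held 3, a count reached by 1.26%. The RefSeq start of Mt1 may lie upstream of the one usually used, so neither Mt1 count need cover its whole promoter. Slc30a1 held 1 core, as did Slc30a5 and 1 of the 2 starts of Slc39a8, and at least 1 core was found in 24.1% of all windows. No core was found in the windows of Mtf1, Slc39a10 or Slc30a9. The glucocorticoid element letters occurred in Mt1 and in 0.435% of all windows. STAT element letters, searched as TTCNNNGAA, occurred in 1 of the 2 starts of Slc39a10 and in 7.83% of all windows. No marked motif overlapped another in the members' windows, and a match describes letters in the window, not a bound site. On chromosome 8, Mt4, Mt3, Mt2 and Mt1 follow each other on the plus strand with no other protein-coding gene between them in the GENCODE annotation.

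Libraries held between 3086277 and 4016329 counts in total. They were made with a kit that reads the 3′ end of polyadenylated transcripts, and the counts carry no correction for length. Levels are in CPM, each count relative to its library's total on a fixed scale, with the totals adjusted by edgeR's trimmed mean (TMM) factors, and 1 read was worth 0.234 CPM in an average septic library and 0.313 in an average control library. Reads of 7 skeletal muscle fibre markers summed to 65840 to 93930 CPM in sepsis and 143200 to 169600 CPM in controls, so the labelled tissue's defining genes were abundant in every library. Leukocyte markers, of which 10 of 11 had reads and Cd79a had none, summed to 274.8 to 468.6 CPM in sepsis and 49.4 to 119 CPM in controls. Fibroblast markers summed to 285.1 to 415.7 CPM in sepsis and 1316 to 2818 CPM in controls, and endothelial markers to 131.2 to 198.3 CPM in sepsis and 130.1 to 134.8 CPM in controls. Markers of satellite cells summed to 16.96 to 53.38 CPM in sepsis and 11.43 to 15.21 CPM in controls, but Vcam1, which endothelium also expresses, made up that difference, at a mean of 27.1 CPM in sepsis and 2.81 CPM in controls. Pax7 averaged 1.57 CPM in sepsis and 2.90 CPM in controls without overlap, Myf5 0.449 CPM in sepsis and 0.908 CPM in controls, and Cdh15 7.40 CPM in sepsis and 7.04 CPM in controls. The sums were lower in sepsis for smooth muscle (176.5 to 192.6 CPM, against 245.3 to 316.8 CPM in controls) and for Schwann cells (36.83 to 53.38 CPM, against 74.1 to 160.4 CPM in controls), while those of adipocytes (19.08 to 39.98 CPM, against 23.71 to 48.16 CPM in controls) and red cells (14.21 to 89.3 CPM, against 43.82 to 951.2 CPM in controls) overlapped. The 5 hepatocyte markers had 1 read in all over the septic libraries and 6 over the controls. With bulk tissue, fewer cells of a type and less RNA per cell cannot be told apart.

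Both metallothionein mRNAs were far more abundant in septic muscle. Mt1 was at 4435, 3553 and 4422 CPM in septic libraries 1 to 3, against 78.8, 31.3, 42.3, 83.6 and 33.3 CPM in control libraries 1 to 5. The groups were far apart: the lowest septic library stood well above the highest control. Mt1 averaged 4137 ± 506 CPM in sepsis (SD, n = 3) and 53.9 ± 25.4 CPM in controls (SD, n = 5), a log2 fold change of 6.27 (SE 0.38), or 76.9-fold. Leaving out any single library kept it between 69.4-fold and 89.2-fold.

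Mt2, the other widely expressed metallothionein, was at 6093, 4164 and 5557 CPM in the septic libraries, against 52.5, 16.9, 23.7, 53.7 and 18.7 CPM in the controls. Its means were 5271 ± 996 CPM in sepsis (SD, n = 3) and 33.1 ± 18.4 CPM in controls (SD, n = 5), a log2 fold change of 7.32 (SE 0.47), or 159-fold. Single libraries left out moved this between 142-fold and 188-fold. Mt2 ranked 18th, 19th and 22nd among all genes by reads in the septic libraries, and Mt1 24th, 23rd and 26th. In controls the best ranks were 1940 for Mt2 and 1283 for Mt1. Together the pair took 1.12% ± 0.102 of all counts in sepsis (SD, n = 3) and 0.00781% ± 0.00395 in controls (SD, n = 5).

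**Figure D1:**
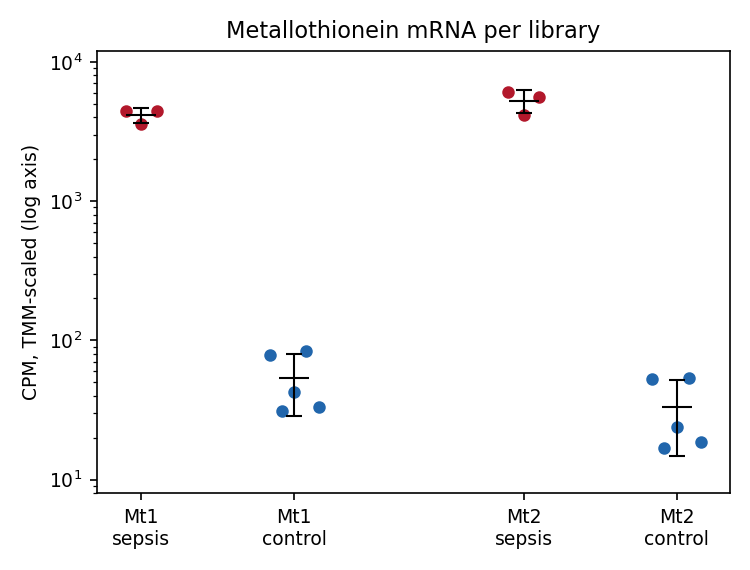
Mt1 and Mt2 levels in TMM-scaled CPM on a log axis, with 1 point per library (3 septic, 5 control) and bars for mean ± SD. The septic points of Mt1 lie between 3553 and 4435 CPM and those of Mt2 between 4164 and 6093 CPM, while no control point exceeds 83.6 CPM.

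The pair varied together within each group. Septic library 2 was the lowest of the 3 for Mt1 and for Mt2. Among controls, libraries 1 and 4 were the highest for both genes and libraries 2 and 5 the lowest, so that the highest control exceeded the lowest by 2.67-fold for Mt1 and 3.18-fold for Mt2. The summed leukocyte markers did not follow this order. Septic library 2 had the highest leukocyte sum of the septic libraries, at 468.6 CPM. Of that sum Lyz2 gave 205 CPM, against 67.6 and 71.6 CPM in septic libraries 1 and 3. Cd68 was lowest in septic library 2, at 78.8 CPM against 99.4 and 149 CPM. Ptprc, Adgre1, Itgam and Csf1r were highest there, and S100a8 and S100a9 were lowest in septic library 1. Control 1 had the highest leukocyte sum of the controls, at 119 CPM, while control 4, with the highest Mt1 and Mt2 CPM of all controls, had the lowest sum, at 49.4 CPM. The part of other cell types in the difference between groups was not tested.

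The balance between the pair differed between the groups. Mt2 made up 57.9%, 54.0% and 55.7% of the metallothionein reads in the septic libraries, with 95% exact Clopper-Pearson intervals of 57.4 to 58.4%, 53.5 to 54.5% and 55.2 to 56.1%. In controls it made up 40.0% (35.6 to 44.6%), 35.1% (27.6 to 43.2%), 35.9% (29.6 to 42.6%), 39.1% (34.2 to 44.2%) and 36.0% (28.6 to 43.8%). Mt2 thus had more reads than Mt1 in every septic library and fewer in every control. The read ratio of Mt2 to Mt1 was 1.27 ± 0.101 in sepsis (SD, n = 3) and 0.594 ± 0.0563 in controls (SD, n = 5). This ratio uses reads of the same library, so no scaling between libraries enters it. The intervals take in counting error within a library and no other, and are no test between the groups. Reads lacking molecular identifiers may be copies of a single molecule, so even the counting error may be larger. Mt1 and Mt2 are paralogs, but their annotated transcripts share no exact run longer than 20 bases, and none longer than 10 within the last 100 bases, the region that 3′-end libraries read. An antisense transcript is annotated across the end of Mt2, and without a stated strand setting its reads could not be told from those of Mt2.

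**Figure D2:**
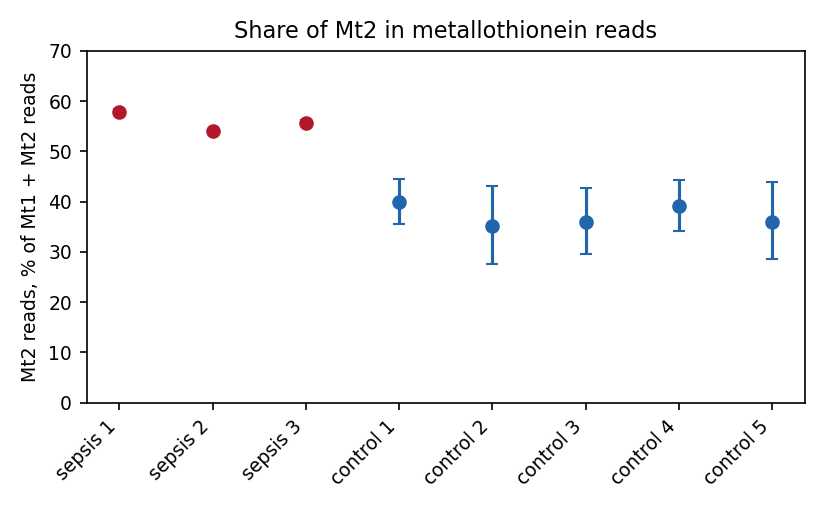
Mt2 reads as a percentage of Mt1 plus Mt2 reads in each library, with 95% exact binomial intervals, which are narrower than the points in sepsis. The 3 septic libraries lie between 54.0% and 57.9% and the 5 controls between 35.1% and 40.0%.

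The brain and skin metallothionein genes were almost silent. Mt3 had 1, 4 and 1 reads in the septic libraries and 14, 2, 3, 3 and 0 in the controls, and Mt4 had 4 reads, all in septic library 3, and none in the controls. Neither had enough reads to pass the filter on low counts. For a gene without a read in a group, the floor of 3 reads allows up to 0.231 CPM over the septic group and 0.187 CPM over the control group.

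Mtf1 mRNA, which encodes the factor that senses zinc and drives metallothionein genes, differed little. It was at 20.4, 21.7 and 18.2 CPM in sepsis, against 18.5, 16.3, 16.8, 20.5 and 16.5 CPM in controls. The groups overlapped, and the log2 fold change was 0.18 (SE 0.16), which became 0.61 with library totals in place of TMM factors. A gene on the opposite strand, 1110065P20Rik, is annotated across the end of Mtf1 and had 140 reads over the septic libraries and 242 over the controls. Mtf1 itself had 261 reads over the septic libraries and 284 over the controls, and the strand setting of the counts was not given.

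Among the importers, Slc39a14 had by far the greatest difference. It encodes ZIP14, a plasma membrane transporter of zinc, iron and manganese. It was at 29.9, 12.1 and 31.8 CPM in the septic libraries (113, 58 and 140 reads), against 2.21, 2.19, 0.600, 1.80 and 1.91 CPM in the controls (8, 7, 2, 5 and 6 reads). The groups did not overlap, and septic library 2 was again the lowest of the 3. Its log2 fold change was 3.79 (SE 0.38), or 13.8-fold, and 11.7-fold to 17.5-fold with single libraries left out. Slc39a14 passed the filter on low counts only through its septic libraries. Slc39a8, which encodes the closely related ZIP8, had 1 read over the septic libraries and 6 over the controls. That ratio of 0.207 has a 95% counting interval of 0.00449 to 1.70. By counting error alone, the reads thus allow anything from a steep fall to a rise of 1.70-fold. Slc39a10 encodes ZIP10, a plasma membrane zinc importer. It was at 5.30, 6.69 and 9.31 CPM in sepsis and 7.74, 10.9, 8.10, 6.49 and 7.62 CPM in controls, with overlapping groups. Its log2 fold change was -0.20 (SE 0.25), and with library totals alone it was 0.22, so it had no settled sign.

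The share of a gene within its family does not depend on the scaling of libraries. Slc39a14 made up 20.9%, 9.18% and 19.4% of the reads of all 14 Slc39 genes in septic libraries 1 to 3, and 16.5% ± 6.39 on average (SD, n = 3). In the 5 controls it made up 0.471% to 1.56%, and 1.22% ± 0.432 on average (SD, n = 5). The summed level of the 14 genes was 146 ± 16.2 CPM in sepsis (SD, n = 3) and 140.3 ± 10.0 CPM in controls (SD, n = 5), a difference within the spread. Slc39a1, with the most 3′ tags of the family in every library, made up 31.7% ± 5.12 of its reads in sepsis and 40.4% ± 2.71 in controls.

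Of the exporters, Slc30a1 and Slc30a9 separated the groups, in opposite directions. Slc30a1 encodes ZnT1, the exporter of the plasma membrane, and was at 13.2, 13.0 and 10.4 CPM in sepsis, against 7.47, 6.25, 3.60, 6.49 and 7.30 CPM in controls. All 3 septic libraries were above all 5 controls, with a log2 fold change of 0.97 (SE 0.24), or 1.96-fold. Slc30a9 encodes ZnT9, which in human cells exports zinc from mitochondria. It was at 31.8, 36.6 and 24.8 CPM in sepsis, against 44.5, 52.2, 60.6, 59.8 and 56.5 CPM in controls, so that all 3 septic libraries were below all 5 controls. Its log2 fold change was -0.81 (SE 0.16), which was -0.39 with library totals alone. Slc30a5 encodes ZnT5 of the early secretory pathway and had 7, 16 and 21 reads in the septic libraries and 11, 8, 6, 4 and 9 in the controls. These are too few to pass the filter on low counts, and its CPM overlapped between the groups.

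Shares within the Slc30 family came from the same reads without any scaling. A gene's share also moves when other genes of its family change. Slc30a1 made up 14.9% ± 0.990 of the reads of all 10 Slc30 genes in sepsis (SD, n = 3) and 6.40% ± 1.56 in controls (SD, n = 5). Slc30a9 made up 37.7% ± 3.83 in sepsis and 56.5% ± 6.88 in controls, and it had the most 3′ tags of the family in every library. The family's summed level was 81.8 ± 7.62 CPM in sepsis and 97.0 ± 2.77 CPM in controls.

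**Figure D3:**
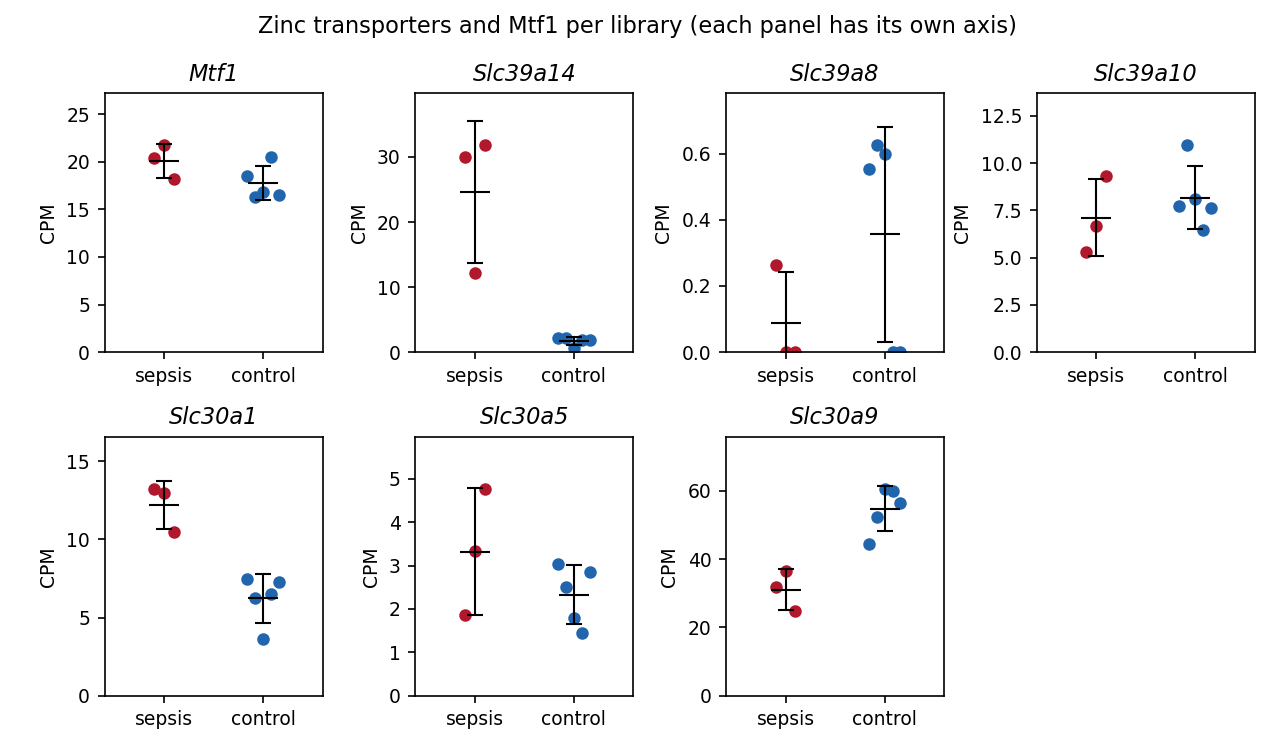
Levels of Mtf1 and the 6 zinc transporter genes in CPM, each on its own axis starting at 0, with 1 point per library and bars for mean ± SD (3 septic, 5 control). Slc39a14 and Slc30a1 are higher and Slc30a9 is lower in sepsis without overlap, while Mtf1, Slc39a8, Slc39a10 and Slc30a5 overlap.

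Of the 9 genes, 7 passed the filter on low counts. The groups did not overlap for 5 of these 7, against 47.4% of the 9810 genes tested, and the 5 also passed the threshold of edgeR's quasi-likelihood test, an adjusted p of 0.05, against 50.4%. They were Mt1, Mt2, Slc39a14 and Slc30a1, which were higher (25.2% of all genes were called higher), and Slc30a9, which was lower (25.2% were called lower). Since the genes were chosen with this comparison in view, nothing is read from these shares. The call of Slc30a9 was lost with library totals alone, where none of the 7 was called lower and 5 were called higher. That scaling put the median over all tested genes, as log2 fold change, at 0.43, against 0.01 with TMM factors. The share called higher among all called genes was 75.4% with it and 50.1% with TMM factors. With the TMM factors, 2475 genes were called higher and 2468 lower.

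The other zinc genes, a list of 24 made up of the remaining family members and 4 zinc channels and sensors, held no gene that passed the test as higher. Mt1, Mt2, Slc39a14 and Slc30a1, which were higher, had been taken out with the difference between the groups known. The counts and the median below therefore describe what was left and do not stand for the families as a whole. By edgeR's quasi-likelihood test, adjusted over all 9810 genes by Benjamini-Hochberg, 13 could be tested, of which 0 rose, 2 fell and 11 did not pass, against 25.2% called higher and 25.2% called lower over all genes tested. At an unadjusted p under 0.05 the counts were 3 higher and 5 lower, and DESeq2 called 0 higher and 2 lower and limma voom 0 higher and 1 lower. Their median log2 fold change was -0.30, against 0.01 for all genes tested. With library totals alone it was 0.13, against 0.43 for all genes tested. Both genes that fell were ZIP importers.

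Slc39a13, which encodes ZIP13 of the early secretory pathway, was at 9.54, 9.40 and 5.68 CPM in sepsis, against 19.9, 17.2, 19.8, 14.8 and 15.2 CPM in controls. The groups did not overlap, and the log2 fold change was -1.09 (SE 0.22, edgeR adjusted p = 0.00107). Over the 16 alternatives this adjusted p ran from 0.000131 to 0.0233. Slc39a5, which encodes ZIP5, an importer known from intestine and pancreas, was at 0.795, 2.51 and 1.59 CPM in sepsis and 5.81, 4.07, 3.30, 2.88 and 4.45 CPM in controls. Its log2 fold change was -1.28 (SE 0.40, edgeR adjusted p = 0.0175), but the call rests on few reads. It was lost without septic library 1, at -0.996 and an edgeR adjusted p of 0.0622, and also with library totals alone, at an edgeR adjusted p of 0.101, and with limma voom, at an adjusted p of 0.0692. Over its 15 alternatives the adjusted p ran from 0.00928 to 0.101.

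Slc39a1, the main plasma membrane ZIP gene by reads, had a log2 fold change of -0.30 (SE 0.12), and Slc39a3, another plasma membrane importer, had -0.67 (SE 0.27). For both the groups did not overlap, yet neither passed, with edgeR adjusted p-values of 0.0598 and 0.0571. Slc39a7, which releases zinc from the endoplasmic reticulum, had 0.39 (SE 0.17), and Slc39a9, a Golgi zinc transporter, had 0.56 (SE 0.24), at edgeR adjusted p-values of 0.0750 and 0.0667. Slc39a6 and Slc39a11 had -0.27 (SE 0.35) and -0.47 (SE 0.42). The vesicular exporter genes Slc30a2 and Slc30a4 had -0.32 (SE 0.22) and 0.52 (SE 0.22), and Slc30a6, whose product pairs with ZnT5, had -0.28 (SE 0.30). The zinc-permeable channel genes Trpm7 and Mcoln1 had -0.16 (SE 0.15) and -0.66 (SE 0.30).

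These counts moved with single libraries. Without septic library 2, 2 genes were called higher (Slc39a7 and Slc39a9) and 4 lower, with Slc39a1 at -0.35 and Slc39a11 at -1.26 added. Without septic library 1, Slc30a4 was called higher and Slc30a2 lower. Slc30a4 was also called higher without control 1. Slc39a3 was called lower without control 1 or control 3, and Mcoln1 without control 2. Slc39a2, Slc39a4, Slc39a12, Slc30a3 and Slc30a7 had too few reads to pass the filter on low counts. Slc39a2 had 2 reads over the septic libraries and 21 over the controls, or 0.118 times the control rate (95% counting interval 0.0134 to 0.483). The exporter genes Slc30a8 and Slc30a10, the zinc receptor gene Gpr39 and the zinc transport gene Tmem163 had no read in any library.

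**Figure D4:**
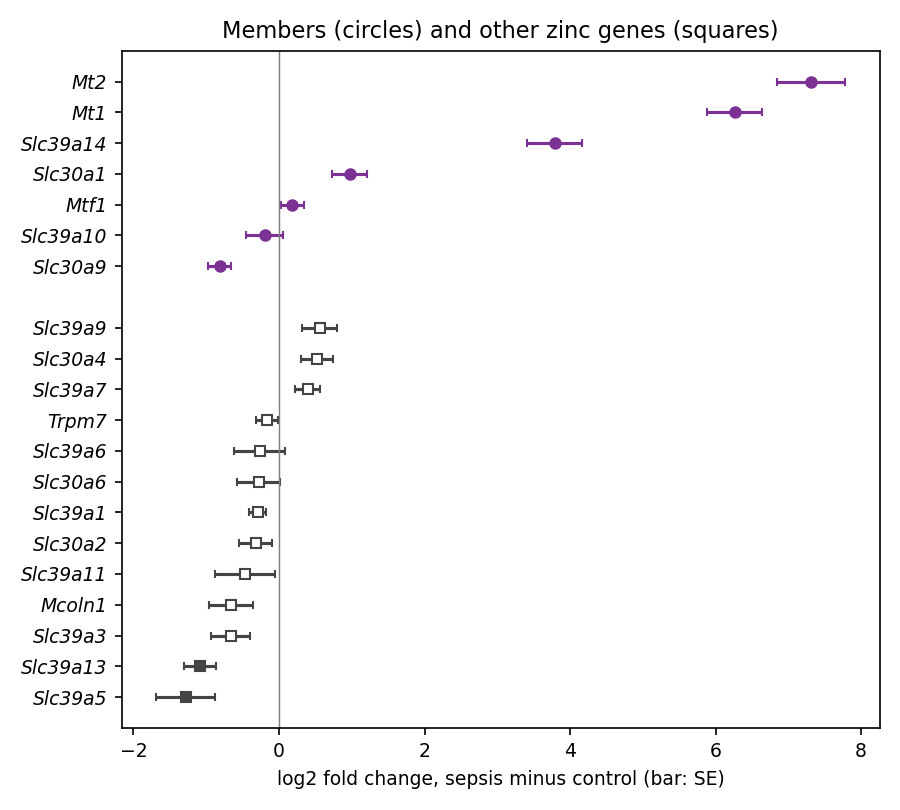
Log2 fold changes, sepsis minus control, with SE bars, of the 7 tested members (circles) and the 13 other zinc genes tested (squares, filled where the adjusted p was under 0.05). The members run from -0.81 for Slc30a9 to 7.32 for Mt2, and the other genes from -1.28 for Slc39a5 to 0.56 for Slc39a9.

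Genes whose level across the 8 libraries was most like that of the metallothioneins were ranked by the root mean square difference of log2 CPM after each gene's own mean was removed, over the 6737 tested genes whose mean log2 CPM was 3 or more. Between Mt1 and Mt2 this difference was 0.535. The nearest other gene was Saa3, an acute-phase serum amyloid gene, at 0.694 from Mt1 and 0.657 from Mt2. It was followed for Mt1 by Serpina3n, a secreted protease inhibitor gene, at 0.869, and by Cd68, a macrophage lysosomal gene, at 0.909. Mustn1, a musculoskeletal gene, and Ankrd1, a stress-responsive gene of striated muscle, came next at 1.05 and 1.23. The same 5 genes came in the same order for Mt2. Each mean was taken over both groups, so the distance includes the difference between sepsis and control. In rank order, the log2 fold changes of the 5 genes were 7.65, 6.31, 4.87, 4.55 and 3.95. The ranking thus largely follows the size of that difference, and whether these genes vary with the metallothioneins within a group was not tested. Saa3 ran from 176 to 290.2 CPM in sepsis and from 0.600 to 1.91 CPM in controls, and Mustn1 from 1722 to 2741 CPM in sepsis and from 47.6 to 153 CPM in controls. Serpina3n belongs to a cluster of near-identical genes, so its count depends on how shared reads were assigned. Cd68 is also on the leukocyte marker list, whose summed level was higher in sepsis, and the part of leukocytes in these patterns was not tested.

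Genes that handle copper, the other metal bound by metallothioneins, were called in shares near or below those of all genes. This list and that of zinc enzymes were also chosen with earlier results of these data known, so their counts describe the listed genes only. Of 15 listed 13 could be tested, of which 3 rose and 2 fell, against 25.2% of all genes called in each direction. Their median log2 fold change was 0.00, against 0.01 for all genes, and 0.42 with library totals alone, against 0.43. Sod1, the cytosolic copper and zinc superoxide dismutase, rose by 1.72 (SE 0.11) on the log2 scale, with an edgeR adjusted p of 8.39e-08. Cp, which encodes the copper-carrying plasma protein ceruloplasmin, rose by 1.38 (SE 0.16), and the copper chaperone gene Cox19, named after its value was seen, rose by 0.67 (SE 0.21). The groups overlapped for Cox19, and its call was lost without septic library 2, at 0.38 and an edgeR adjusted p of 0.114. Commd1, a regulator of copper export, fell by 2.05 (SE 0.20) on the log2 scale. Cox17, a copper chaperone of mitochondria, had -0.47 (SE 0.11, edgeR adjusted p = 0.00327) and was not called with library totals alone, at -0.06.

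Genes listed as zinc-containing enzymes were mostly lower. In a list of 18, 14 could be tested, of which 8 fell and 0 rose by edgeR (at an unadjusted p under 0.05, 9 were lower and 0 higher; DESeq2 called 8 lower and 0 higher and limma voom 7 lower and 0 higher). Over all genes tested, 25.2% were called lower and 25.2% higher. The list's median log2 fold change was -0.93, against 0.01 for all genes. Sod1, the copper and zinc superoxide dismutase, was on the copper list instead, where it rose by 1.72 (SE 0.11) on the log2 scale. The count of 0 that rose depends on that placement. Qdpr, among the 8 that fell at -0.80 (SE 0.20, edgeR adjusted p = 0.00481), does not encode a zinc enzyme. The list's counts and median include it. The muscle carbonic anhydrase gene Car3 averaged 555 CPM in sepsis and 2423 CPM in controls, a log2 fold change of -2.12 (SE 0.10, edgeR adjusted p = 8.99e-09). The membrane carbonic anhydrase gene Car14 fell by 4.57 (SE 0.37) on the log2 scale. Summed muscle fibre markers were also lower, at 65840 to 93930 CPM in sepsis and 143200 to 169600 CPM in controls, and their part in this result was not tested.

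Glucocorticoids and inflammatory cytokines are among the inducers of metallothioneins, and lists of genes for these 2 signals were mostly higher. Both lists were chosen with earlier results of these data known, so their counts describe the listed genes only. Whether either signal acted on Mt1 or Mt2 was not tested. Of 15 genes induced by glucocorticoids 11 rose and 0 fell by edgeR (0 lower also at an unadjusted p under 0.05, and 11 and 0 by DESeq2, 10 and 0 by limma voom), against 25.2% of all genes called in each direction. Their median log2 fold change was 1.47, against 0.01 for all genes. The 4 that did not pass were Klf9, Sgk1, Ddit4 and Dusp1, at edgeR adjusted p-values of 0.106, 0.306, 0.331 and 0.741. Tsc22d3, which encodes the glucocorticoid-induced leucine zipper, rose by 1.36 (SE 0.16, edgeR adjusted p = 2.18e-05) on the log2 scale, and Klf15, a transcription factor gene, by 2.10 (SE 0.26, edgeR adjusted p = 2.60e-05). Both were higher in all 3 septic libraries than in any control. In the list of interleukin-6 and STAT3 signalling 12 of 16 genes could be tested, of which 9 rose and 2 fell, against the same 25.2% in each direction, with a median of 1.24. DESeq2 called 9 higher and 2 lower and limma voom 9 higher and 1 lower. The receptor gene Il6ra rose by 2.21 (SE 0.26), and Saa3, with 19 reads over the controls, rose by 7.65 (SE 0.26). Saa3 passed the filter on low counts only through its septic libraries. The kinase gene Jak2 and Fgl2 fell by 0.67 (SE 0.16) and 1.13 (SE 0.34), calls lost with library totals alone. The groups overlapped for Fgl2, whose call was also lost with limma voom, at an adjusted p of 0.127. Il6 itself had 2 reads over the septic libraries and 1 over the controls. The summed leukocyte markers, at 274.8 to 468.6 CPM in sepsis and 49.4 to 119 CPM in controls, moved with these lists, and their part was not tested.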

How the data were processed

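The authors deposited raw counts per gene, 1 column per library with no pooling, in a single table; no column was left unused. Per the labels' protocols, RNA was spin-column purified and made into QuantSeq 3′ libraries; the build was GRCm39 per the submitters' processing notes. No aligner, counter, strand setting or annotation is given in the sources used here. Symbols of all 9 members matched their identifiers in the reference name table.

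Groups were set by the labels. In R 4.3.3, edgeR 4.0.16's expression filter (counts of 10, total of 15) left 9810 genes, which were scaled by TMM, and sepsis was compared with control by the quasi-likelihood F test with robust dispersions over all 8 libraries. P-values were adjusted by Benjamini-Hochberg over all tested genes, at a threshold of 0.05. Log2 fold changes are septic over control; the SE was derived as the size of the change over the root of F. CPM use whole-library totals times the TMM factors. Log2 CPM used a prior count of 2. The procedure was tested on simulated data. Intervals of read ratios are exact binomial ones at 95%, and floors are 3 reads over a group.

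Alternatives were library totals, upper-quartile and median-ratio factors, DESeq2 1.42.0, limma 3.58.1 voom with group weights, 2 filters, a replicate block, and each library left out. Named genes were all members, all tested genes of the other zinc lists, the 2 smallest p-values per direction of each context list, and the 5 nearest patterns. Members and lists were chosen with earlier results of these data known, and the 280-base promoter window, and the count before the start alone, after the sequences were seen.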

Additional observations from a re-analysis of the deposited data

Results flagged for a closer look

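Values of the 5 controls were checked for a single library far from the rest, by the ratio of its gap to the whole range against a critical value of 0.71. Of 53 quantities checked 5 were above it, and chance gives about 1 in 20. Control 3 was low for Slc39a14, at 0.600 CPM, against 1.80 to 2.21 CPM in the other controls, a difference of few reads. Control 3 was also high for Il6ra, at 11.7 CPM, against 7.30 to 8.57 CPM. Control 1 was high for Mt3, at 3.87 CPM against 0 to 1.08 CPM, for Ankrd1, at 76.6 CPM against 12.5 to 27.6 CPM, and for the summed leukocyte markers, at 119 CPM against 49.4 to 58.5 CPM.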

How the results depend on the processing

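Counts of calls and the log2 fold changes of the named genes were recomputed under 16 alternatives, or 15 where the strictest filter removed the gene. Library shares, ranks, marker sums and pattern distances were not. The log2 fold changes of the 7 tested members kept their size within 1 SD of the replicates in 106 of 110 recomputed values, and none of the 5 called ones changed sign. The other 4 all came from library totals alone, at 0.61 for Mtf1, 0.22 for Slc39a10, 1.39 for Slc30a1 and -0.39 for Slc30a9. With library totals alone, 4256 genes were called higher and 1387 lower over the whole table, 3 of the other zinc genes were higher and 1 lower, and 0 members were lower. The other zinc genes called lower were 4 with upper-quartile factors, 1 with limma voom and 1 with the replicate block, where Slc39a5, Cox17 and Cox19 were not called (edgeR adjusted p = 0.0595, 0.0627 and 0.0932). With single libraries left out they were 2 to 4, and those called higher were 0 to 2. The cause of these moves was not tested. With the replicate block, 1741 genes were higher and 1884 lower over the whole table. Same-numbered septic and control libraries did not deviate together (correlations of -0.124, 0.0409 and -0.0196 across genes), and not every library correlated best with its own number. So few pairs cannot show whether the numbers pair the samples. Depth limits Slc39a8, Slc30a5, Mt3, Mt4 and the other genes with too few reads, which the main filter left untested. With no expression filter, all 9 members and 20 of the other zinc genes entered the fit. Of those 20, 3 were called lower, against 2 in the main fit, and 0 higher.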
